A study of Rattus norvegicus with 10 samples.

Results

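The 10 genes named as activity-induced immediate early genes, Egr1, Egr3, Fos, Fosb, Junb, Nr4a1, Arc, Ier2, Dusp1 and Btg2, were followed through RNA sequencing of rat L6 dorsal root ganglia. They were looked up by name among the 30560 rows of the table of estimated counts. The list of names was chosen with earlier results of these data known. A row was found for 9 of the 10 genes, and all 9 had enough counts to be among the 15186 rows tested. Dusp1, a phosphatase that inactivates MAP kinases, was not analysed here.

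Dorsal root ganglia hold the cell bodies of sensory neurons together with satellite glia, Schwann cells, macrophages and vessels. The ganglia came from Sprague Dawley rats aged 7 to 8 weeks, all of which had a catheter placed in the lumbar intrathecal space under isoflurane and received meloxicam SR after surgery and again at dosing. Through the catheter, 5 days after surgery, rats received 30 to 45 µL of either PBS (0 mg siRNA, 5 samples) or 0.75 mg of SCN9A_2544, a divalent siRNA directed at Scn9a, the gene for the sodium channel Nav1.7 (5 samples). The timepoint given for every sample is 14 days, and the labels do not say from which event it is counted. Nor do they tie each sample to 1 animal, so the p-values rest on variation among these samples, some of which may be technical. No group given a siRNA without a target was analysed here, so dosing with any siRNA and the loss of Scn9a cannot be told apart.

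Immediate early genes are transcribed within minutes of a stimulus without new protein synthesis, and their mRNAs are short-lived. In neurons they follow calcium entry and growth factor signals, which reach their promoters through MAP kinases, the serum response factor and CREB. In other cells of the ganglion they also respond to growth factors, injury and the handling of tissue. Most encode transcription factors that set off a later wave of genes, so their level in a dissected ganglion is a snapshot of recent signalling in all its cells.

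Such signals reach a gene through sites in its promoter and elsewhere. The 4 promoters shown are of genes with unlike patterns over the libraries, not of those with the highest fold changes. Fosb, with a log2 fold change of 1.41 that was higher than in each of the 4, is not shown. Its window holds neither of the motifs marked below. Egr1 separated the groups, and Ier2 and Nr4a1 had their highest value in 1 treated library far from its group. Btg2 had its highest value in a PBS library, and its groups overlapped. Each line is the 250 bases before the RefSeq transcription start, 5′ to 3′ on the strand of the gene, in build GRCr8, which is not the build named for the counts. Capitals mark the CArG box, bound by the serum response factor, and TGACG in either direction (CGTCA on the strand shown), the core of the cAMP response element bound by CREB, whose full form TGACGTCA holds that core on both strands. The windows are chr18:26736828-26737077 (plus strand) for Egr1, chr19:40399123-40399372 (plus strand) for Ier2, chr7:134259888-134260137 (plus strand) for Nr4a1 and chr13:48087691-48087940 (minus strand) for Btg2.
Egr1: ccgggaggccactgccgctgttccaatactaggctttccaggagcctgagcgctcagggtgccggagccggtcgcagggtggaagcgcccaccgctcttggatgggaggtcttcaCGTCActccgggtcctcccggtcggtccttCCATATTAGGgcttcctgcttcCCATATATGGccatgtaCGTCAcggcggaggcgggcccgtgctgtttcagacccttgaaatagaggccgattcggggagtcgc
Ier2: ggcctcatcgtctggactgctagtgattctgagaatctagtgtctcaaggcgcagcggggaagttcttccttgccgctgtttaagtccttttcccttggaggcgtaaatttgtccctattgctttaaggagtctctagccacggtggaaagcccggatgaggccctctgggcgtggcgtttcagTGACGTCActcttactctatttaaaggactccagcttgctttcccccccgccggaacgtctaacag
Nr4a1: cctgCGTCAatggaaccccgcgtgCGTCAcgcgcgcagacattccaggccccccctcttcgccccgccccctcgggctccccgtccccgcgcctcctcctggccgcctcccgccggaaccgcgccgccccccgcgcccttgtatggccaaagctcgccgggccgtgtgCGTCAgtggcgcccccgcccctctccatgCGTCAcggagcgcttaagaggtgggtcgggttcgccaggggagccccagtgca
Btg2: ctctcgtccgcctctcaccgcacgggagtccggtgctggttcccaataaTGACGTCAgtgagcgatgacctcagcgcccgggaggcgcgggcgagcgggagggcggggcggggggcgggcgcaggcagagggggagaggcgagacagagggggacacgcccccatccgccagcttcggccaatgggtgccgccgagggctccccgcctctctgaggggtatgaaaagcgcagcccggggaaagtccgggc

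A promoter sequence was found for 7 of the 10 genes, those of Egr1, Fosb, Junb, Nr4a1, Ier2, Dusp1 and Btg2. A set of 6 motifs were searched on both strands, and their background is the share of all 33469 rat promoter windows of 250 bases that hold at least 1 match. Egr1 was the only 1 of the 7 with a CArG box, and it had 2, beginning at -105 and -83 from the start, while 1.5% of all promoters hold one. The full element TGACGTCA, found in 1.59% of promoters, was present once in Ier2 (at -66), Btg2 (at -201) and Dusp1 (at -124). The core TGACG, counted also inside the full element and found in 18.2% of promoters, occurred 4 times in Nr4a1, 3 times in Dusp1, 2 times each in Egr1, Ier2 and Btg2 and once in Junb. The EGR motif GCGNGGGCG, held by 4.29% of promoters, occurred once in Nr4a1 and once in Btg2, and the AP-1 motif TGANTCA, held by 6.34%, in none of the 7. A TATAAA run, held by 12.9%, occurred in Junb and Fosb, and it was the only 1 of the 6 motifs in the window of Fosb. These matches describe letters in a window and do not show that a factor binds there.

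Library totals ran from 11832376 to 15420006 estimated counts. Levels are given below as CPM (each library's counts brought to 1 common size) after scaling by TMM factors, and, since they are not divided by transcript length, they are compared between libraries and not between genes. Scn9a stood at 132 to 257 CPM in PBS libraries and at 44.6 to 103 CPM in treated libraries, so the targeted gene separated the groups. The ganglia differed widely in their cell content, and in bulk tissue fewer cells of a type and less RNA per cell cannot be told apart. The mean of 20 pan-neuronal genes ran from 8.24 to 9.39 log2 CPM in PBS and from 9.01 to 9.35 in 4 of the treated libraries, whereas SCN9A_2544 replicate 3 had 7.97, the lowest of the 10. That library also had the highest mean of 15 Schwann cell and myelin genes, 10.1 log2 CPM against 7.89 to 9.92 in PBS and 8.06 to 8.81 in the other treated libraries. Its endothelial mean of 4.56 log2 CPM was the highest as well, its Scn9a level was the lowest, and the values of the immediate early genes and of the other genes named are therefore given with and without it. Of 8 spinal cord markers, Mog, Mobp, Opalin, Aqp4, Olig2 and Gad2 reached at most 1.62 CPM in any library. The others were well above that level. Gfap held 17.5 to 99.9 CPM in PBS and 28.0 to 150 CPM in treated libraries, and was highest in SCN9A_2544 replicate 3. Slc17a6 held 59.6 to 133 CPM in PBS and 46.9 to 162 CPM in treated libraries. The source of these transcripts was not tested.

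Across the 9 immediate early genes, 8 had a log2 fold change above 0 in treated against PBS ganglia, beside 8108 of all 15186 genes tested. The median of the 9 was 0.64, beside a median of 0.02 over all genes tested. Egr1, Fosb and Fos had the highest values, and Arc, Nr4a1 and Btg2 lay near 0. None of the 9 passed an adjusted p of 0.05 in edgeR's quasi-likelihood test, in which 0 of all 15186 genes (0%) passed and 642 reached an unadjusted p under 0.05, while DESeq2 passed 1 of the 9, Egr1. An unadjusted p under 0.05 with a higher level was reached by 4 of the 9 (Egr1, Fosb, Fos and Ier2), beside 2.5% of all genes. Without SCN9A_2544 replicate 3, 8 of 9 values were again above 0, beside 7119 of all 15324 genes tested, but the median was 0.26 (-0.02 over all genes). The count with an unadjusted p under 0.05 and a higher level was then 3 of 9 (Egr1, Fosb and Fos), beside 2.43% of all genes. In that smaller set edgeR passed 1 gene (0.00653%), no immediate early gene among them, and 991 genes had an unadjusted p under 0.05. The count of 642 was unsteady: leaving out PBS replicate 4 gave 1642, leaving out PBS replicate 5 gave 385, and leaving out SCN9A_2544 replicate 1 gave 406.

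**Figure D1:**
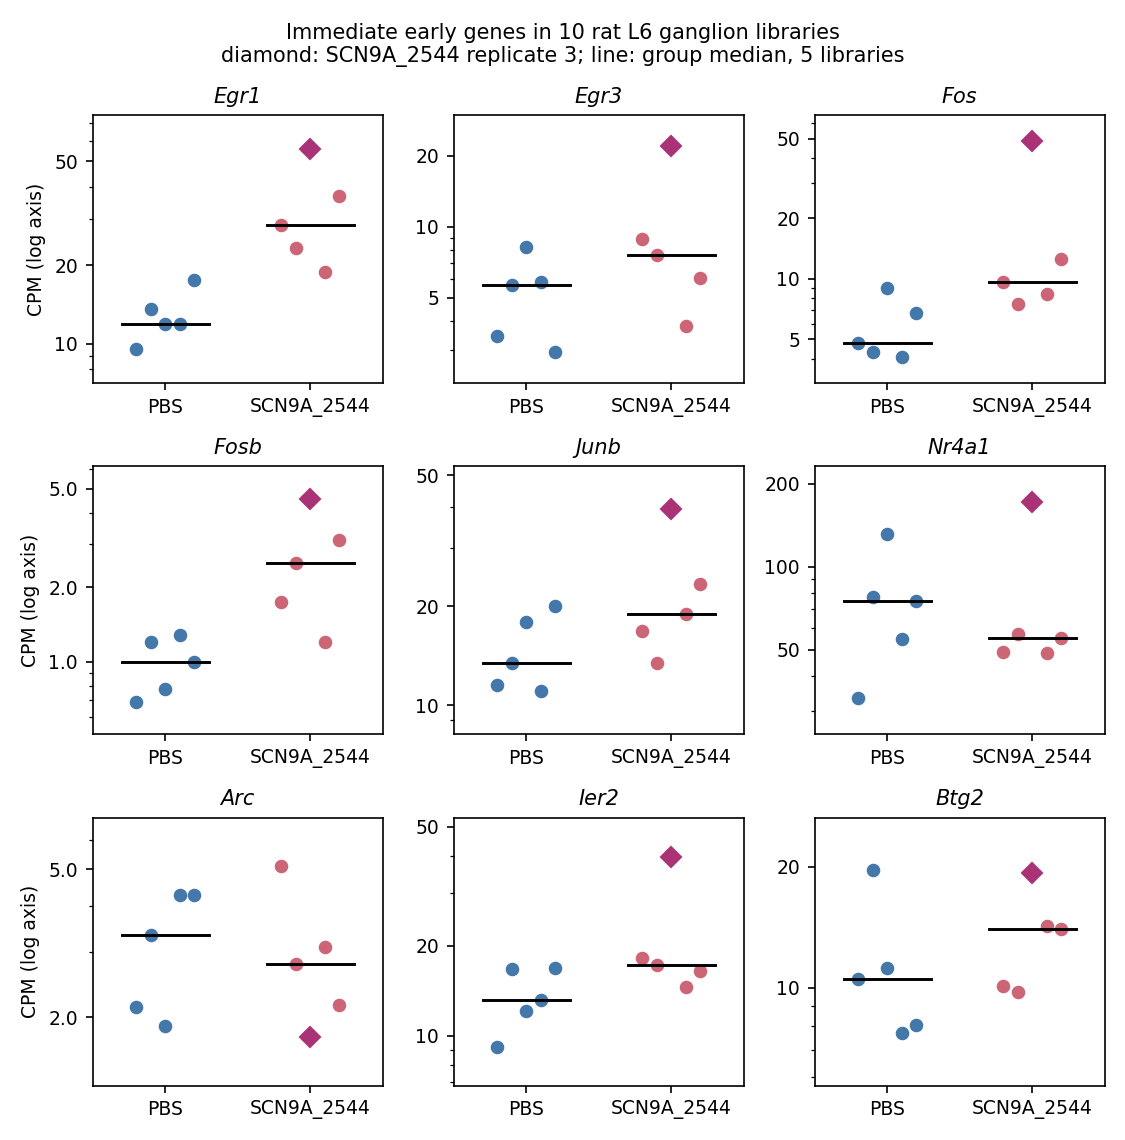
CPM of the 9 immediate early genes in each library on log axes, with PBS libraries in blue, SCN9A_2544 libraries in red, SCN9A_2544 replicate 3 as a diamond and the group median as a line (n = 5 each). Only for Egr1 do the groups not overlap, and the diamond is the highest point for 7 of the 9 genes and the lowest for Arc.

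The member that separated the groups was Egr1 (ENSRNOG00000019422), a zinc-finger transcription factor induced by MAP kinase signals. Its PBS libraries, replicates 1 to 5, held 9.55, 13.6, 11.9, 11.9 and 17.6 CPM, and its treated libraries 28.6, 23.2, 55.8, 18.8 and 36.8 CPM. Every treated library lay above every PBS library, although the lowest treated value, replicate 4, was close to the highest PBS value, replicate 5. Group means were 12.9 ± 2.98 CPM for PBS and 32.6 ± 14.6 CPM for SCN9A_2544 (SD, n = 5 each). The same separation in that direction was seen for 0.454% of all genes, and without SCN9A_2544 replicate 3 for 0.816%. The edgeR log2 fold change was 1.34 (SE 0.28, 95% interval 0.72 to 1.95), rank 8 by p among all genes, with an edgeR adjusted p = 0.812 over all of them. Leaving out SCN9A_2544 replicate 3 lowered the treated mean to 26.8 ± 7.73 CPM (n = 4) and the log2 fold change to 1.02 (SE 0.22, 95% interval 0.52 to 1.51), with an edgeR adjusted p = 0.661.

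The call for Egr1 depended on the tool. DESeq2 gave a log2 fold change of 1.31 and an adjusted p = 0.0188, Egr1 being 1 of the 17 genes (0.0945%) it passed. Without SCN9A_2544 replicate 3 DESeq2 gave 1.03 and an adjusted p = 0.0261, 1 of 36 genes (0.212%). It passed no other immediate early gene of the 9 in either set of libraries.

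Egr3 (ENSRNOG00000017828), a related factor that in neurons follows stronger or longer stimulation, was less regular. PBS libraries 1 to 5 held 3.43, 5.65, 8.22, 5.81 and 2.94 CPM, and treated libraries held 8.90, 7.62, 22.1, 3.78 and 6.06 CPM. The groups overlapped, and SCN9A_2544 replicate 3 stood 2.48 times above the next library. In edgeR its log2 fold change was 0.89 (SE 0.45, edgeR adjusted p = 0.963), and without that library it was 0.31 (SE 0.33, 95% interval -0.42 to 1.05, adjusted p = 0.748).

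Among the AP-1 genes, whose proteins pair into the Fos and Jun dimers that bind TGANTCA, Fos (ENSRNOG00000008015) had the highest log2 fold change of the 9 genes and was the most dependent on 1 library. Fos held 4.81, 4.32, 9.06, 4.10 and 6.81 CPM in PBS libraries 1 to 5 and 9.62, 7.55, 48.5, 8.37 and 12.5 CPM in treated libraries 1 to 5. SCN9A_2544 replicate 3 stood 3.87 times above the next library, while among the others only PBS replicate 3 lay within the treated range. The log2 fold change of Fos was 1.57 (SE 0.52, 95% interval 0.44 to 2.7, edgeR adjusted p = 0.963). It was 0.67 without that library (SE 0.27, 95% interval 0.08 to 1.27, edgeR adjusted p = 0.661), with means of 5.82 ± 2.10 CPM for PBS (SD, n = 5) and 9.52 ± 2.18 CPM for SCN9A_2544 (SD, n = 4).

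Fosb (ENSRNOG00000046667), which also gives rise to the long-lived deltaFosB protein, was the least counted of the 9, with 10 to 67 counts per library. It held 0.687, 1.20, 0.773, 1.28 and 1.00 CPM in PBS libraries 1 to 5 and 1.75, 2.52, 4.56, 1.20 and 3.10 CPM in treated libraries 1 to 5. Of the 5 treated libraries 4 lay above every PBS library, and replicate 4 lay inside the PBS range. For Fosb the log2 fold change was 1.41 (SE 0.37, 95% interval 0.59 to 2.22, edgeR adjusted p = 0.963). Without SCN9A_2544 replicate 3 it was 1.08 (SE 0.34, 95% interval 0.33 to 1.82, edgeR adjusted p = 0.661).

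Junb (ENSRNOG00000067725), a Jun-family partner of the Fos proteins, held 11.5, 13.4, 17.9, 11.0 and 20.02 CPM in PBS libraries and 16.8, 13.5, 39.4, 19.0 and 23.4 CPM in treated libraries. The groups overlapped through the PBS replicates 3 and 5, the PBS libraries with the lowest pan-neuronal means. Its log2 fold change was 0.60 (SE 0.29, edgeR adjusted p = 0.963) with all libraries and 0.26 (SE 0.23, 95% interval -0.24 to 0.75, adjusted p = 0.709) without SCN9A_2544 replicate 3.

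Nr4a1 (ENSRNOG00000007607), an orphan nuclear receptor also called Nur77, was highest in SCN9A_2544 replicate 3 and PBS replicate 3, the libraries with the lowest pan-neuronal means. Its PBS libraries held 33.2, 77.8, 131, 54.8 and 75.0 CPM, a wide range, and its treated libraries held 49.1, 57.1, 171, 48.4 and 55.2 CPM. Apart from SCN9A_2544 replicate 3, the treated libraries lay close together and inside the PBS range. With all libraries the log2 fold change was 0.04 (SE 0.42, 95% interval -0.88 to 0.95, edgeR adjusted p = 0.997), and without that library it turned to -0.54 (SE 0.31, 95% interval -1.21 to 0.14, adjusted p = 0.661). Its sign also turned without PBS replicate 1 (-0.15) and without PBS replicate 4 (-0.06).

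Arc (ENSRNOG00000043465) encodes a synaptic protein that controls AMPA receptor traffic. It held 2.13, 3.33, 1.90, 4.27 and 4.27 CPM in PBS libraries and 5.10, 2.79, 1.77, 3.09 and 2.16 CPM in treated libraries. SCN9A_2544 replicate 3, the highest library for most of the others, was the lowest for Arc. Arc had a log2 fold change of -0.09 (SE 0.34, 95% interval -0.84 to 0.65, edgeR adjusted p = 0.991) and 0.01 (SE 0.34) without that library. At 26 to 70 counts per library, differences inside that interval were not detectable.

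Ier2 (ENSRNOG00000067274), a small nuclear protein induced by growth factors, held 9.20, 16.7, 12.1, 13.2 and 16.8 CPM in PBS libraries and 18.2, 17.2, 39.7, 14.5 and 16.5 CPM in treated libraries. Outside SCN9A_2544 replicate 3, which stood 2.19 times above the next library, the treated values lay around the top of the PBS range. The log2 fold change was 0.64 (SE 0.29, edgeR adjusted p = 0.963) and 0.25 (SE 0.19, 95% interval -0.16 to 0.67, edgeR adjusted p = 0.682) without that library.

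Btg2 (ENSRNOG00000003300), an antiproliferative protein that recruits mRNA deadenylation, held 10.5, 19.6, 11.2, 7.69 and 8.08 CPM in PBS libraries and 10.1, 9.73, 19.3, 14.2 and 14.0 CPM in treated libraries. The highest library was PBS replicate 2, and the groups overlapped, though PBS replicates 4 and 5 lay below every treated library. Btg2 had a log2 fold change of 0.24 (SE 0.28, 95% interval -0.38 to 0.85, edgeR adjusted p = 0.9747) and 0.04 (SE 0.28) without SCN9A_2544 replicate 3.

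**Figure D2:**
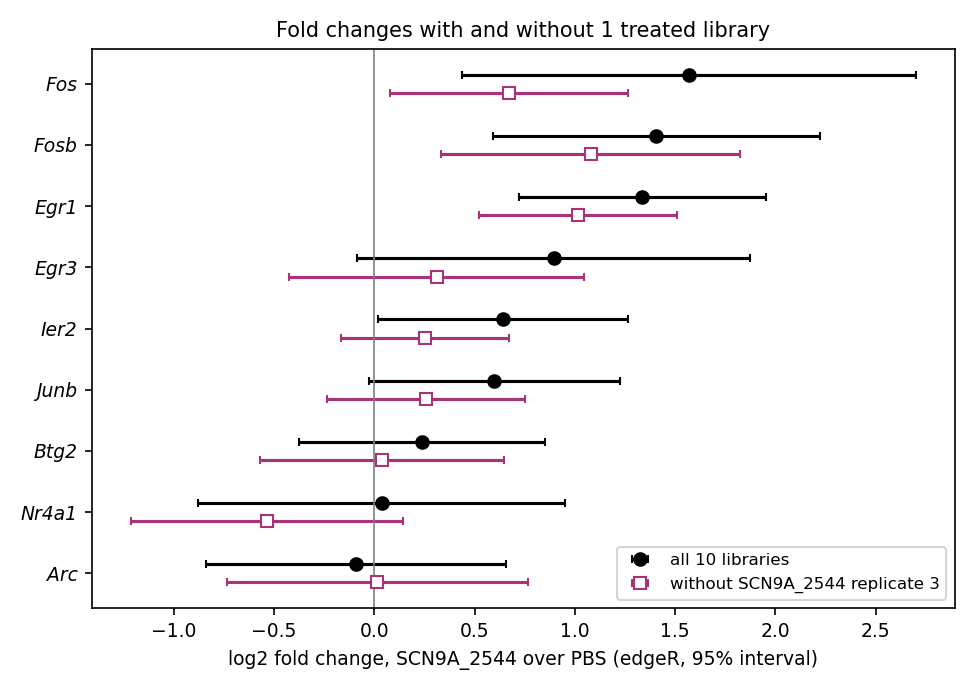
edgeR log2 fold change of SCN9A_2544 over PBS with its 95% interval for the 9 genes, with all 10 libraries (filled circles) and without SCN9A_2544 replicate 3 (open squares). Fos moves most, from 1.57 to 0.67, while the intervals of Egr1, Fosb and Fos stay above 0 before adjustment over all genes.

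SCN9A_2544 replicate 3 was the highest of the 10 libraries for 7 of the 9 genes, the second highest for Btg2 and the lowest for Arc. The background is high, since 21.1% of all genes tested were highest in it. Against the PBS mean of each gene, the median over the 9 genes was 1.57 on the log2 scale in that library, 0.73 in SCN9A_2544 replicate 1 and between 0.28 and 0.38 in the other treated libraries. The PBS libraries ran from -0.42 in replicate 1 to 0.29 in replicate 5. By this median the treated replicate 4 (0.28) did not stand above PBS replicate 5. PBS replicate 1 was the lowest library for 4 of the 9 genes and PBS replicate 4 for 3.

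The neuronal content of a library went with the immediate early genes unevenly. PBS replicates 3 and 5 were also poor in neuronal transcripts, with pan-neuronal means of 8.24 and 8.50 log2 CPM. Fos and Junb had their highest PBS values in these 2 libraries, and Nr4a1 its highest in replicate 3, whereas Fosb there, at 0.773 and 1.00 CPM, was not above the other PBS libraries. Egr1 and Ier2 had their highest PBS values in replicate 5, at 17.6 and 16.8 CPM, while in replicate 3 they stood at 11.9 and 12.1 CPM, among the other PBS libraries. When edgeR was given the pan-neuronal level of each library as a covariate, the log2 fold change was 1.34 for Egr1 (adjusted p = 0.117), 1.41 for Fos (adjusted p = 0.117), 1.395 for Fosb (adjusted p = 0.422) and 0.63 for Junb (adjusted p = 0.347). When the 3 most neuron-poor libraries (PBS replicates 3 and 5 and SCN9A_2544 replicate 3) were left out, an alternative added once the values were known, it was 1.17 for Egr1, 1.08 for Fos, 1.00 for Fosb and 0.57 for Junb (edgeR adjusted p = 0.611 for Egr1 and Fos and 1.00 for Fosb and Junb).

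**Figure D3:**
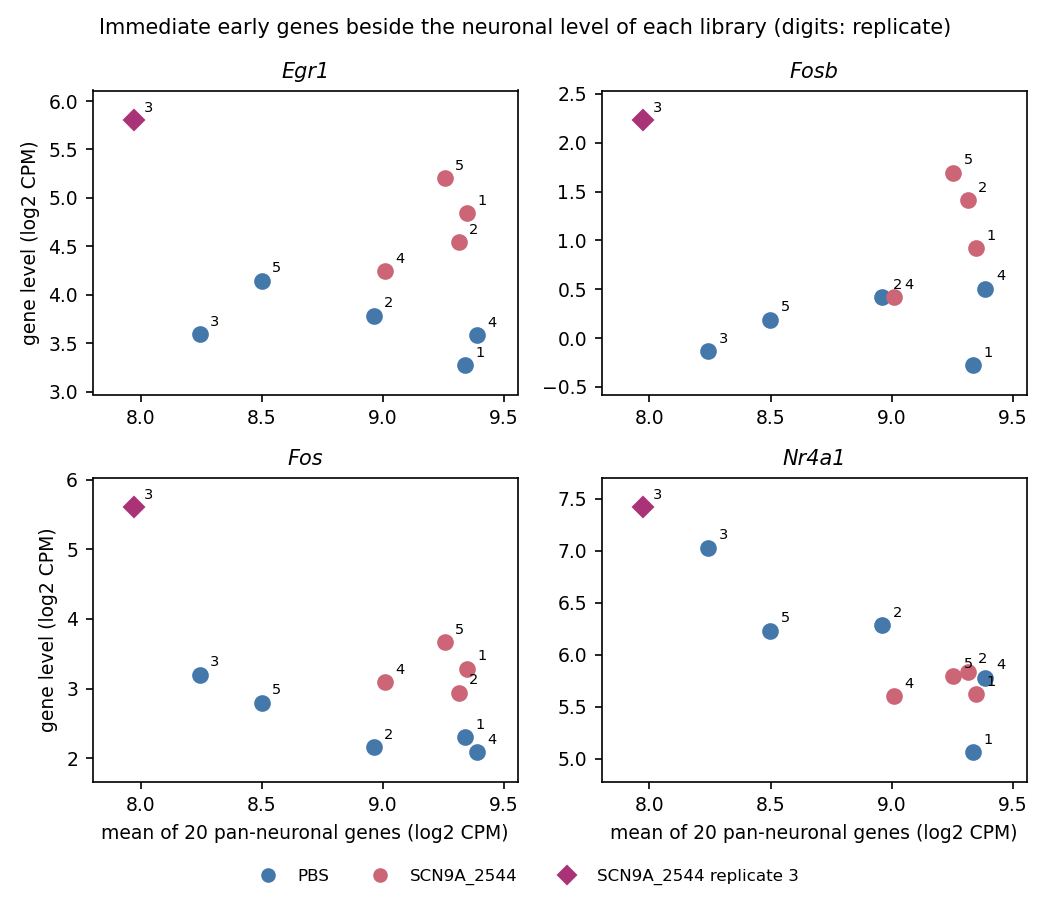
Level of Egr1, Fosb, Fos and Nr4a1 (log2 CPM) against the mean of 20 pan-neuronal genes (log2 CPM) in each of the 10 libraries, numbered by replicate. SCN9A_2544 replicate 3 is at the far left with 7.97 log2 CPM, and at neuronal levels above 9 the treated libraries lie above the PBS libraries for Egr1.

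Markers of other cells in the ganglion also differed between the libraries, and none passed edgeR's test, while DESeq2 passed 1 macrophage gene. The mean of 14 macrophage genes ran from 3.47 to 4.09 log2 CPM in PBS and from 3.90 to 4.79 in treated libraries, with overlap. Their summed level ran from 182 to 274 CPM in PBS and from 275 to 496 CPM in treated libraries, barely apart. In log2 fold change 13 of the 14 lay above 0, beside 8108 of all 15186 genes tested. Their median was 0.51, and 0.34 without SCN9A_2544 replicate 3. In edgeR 7 of the 14 had an unadjusted p under 0.05 with a higher level, beside 2.5% of all genes. Without that library the count was 5, beside 2.43%. C1qa, a chain of complement C1q, was the macrophage gene with the smallest p and had 1.03 (SE 0.20, edgeR adjusted p = 0.812), or 0.94 without SCN9A_2544 replicate 3. DESeq2 passed C1qa in both sets of libraries. The mean of 12 satellite glia genes ran from 6.54 to 6.81 log2 CPM in PBS and from 6.93 to 7.05 in treated libraries (from 6.95 without SCN9A_2544 replicate 3). Their summed level overlapped, at 4208 to 6044 CPM in PBS and 5550 to 6387 CPM in treated libraries. In log2 fold change 9 of the 12 genes lay above 0 and 3 below. Their median was 0.29, and 0.27 without SCN9A_2544 replicate 3. In edgeR 3 of the 12 had an unadjusted p under 0.05 with a higher level. Ednrb, the endothelin B receptor and the satellite glia gene with the smallest p, was at 59.7 CPM in SCN9A_2544 replicate 3, and its log2 fold change of 1.07 (SE 0.31, edgeR adjusted p = 0.963) was 0.67 without it. In other lists most genes had a log2 fold change below 0, beside 7078 of all 15186 genes tested. They were 10 of 15 Schwann cell and myelin genes (median -0.23, and -0.81 without SCN9A_2544 replicate 3), 7 of 9 fibroblast genes (median -0.45, then -0.66) and 6 of 7 neutrophil genes (median -0.40, then -0.82). The library means of these lists overlapped. For Schwann cell and myelin genes they ran from 7.89 to 9.92 log2 CPM in PBS and from 8.06 to 10.1 in treated libraries. Fibroblast means ran from 6.73 to 8.78 in PBS and from 7.45 to 8.17 in treated libraries, and neutrophil means from 2.36 to 5.95 and from 3.67 to 5.32. The part of macrophages, satellite glia, Schwann cells, fibroblasts, neutrophils or neurons in the levels of the immediate early genes was not tested.

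The partners and relatives of these genes were read next, in lists chosen with earlier results of these data known. Over all genes tested 8108 of 15186 lay above 0, and 7119 of 15324 without SCN9A_2544 replicate 3. Of the 8 tested rows of other AP-1 and ATF subunits, 7 lay above 0. An unadjusted p under 0.05 with a higher level was reached by 2 of the 8, beside 2.5% of all genes. The median log2 fold change of the 8 was 0.44, and 0.12 without SCN9A_2544 replicate 3. Jun, the main partner of Fos and a gene induced in injured sensory neurons, held 106, 116, 138, 134 and 124 CPM in PBS libraries and 170, 149, 289, 228 and 195 CPM in treated libraries. Every treated library of Jun lay above every PBS library, a separation seen for 0.454% of all genes tested. Its log2 fold change was 0.74 (SE 0.18, edgeR adjusted p = 0.963) and 0.55 (SE 0.14, adjusted p = 0.661) without SCN9A_2544 replicate 3. Atf3, a stress and injury factor that dimerises with Jun, held 9.40 to 36.6 CPM in PBS and 14.0 to 89.5 CPM in treated libraries, with overlap, a log2 fold change of 1.42 (SE 0.51) and 1.18 without that library. Its highest library was treated replicate 4, in which Egr1 and Fosb were at their lowest among treated libraries.

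Of the remaining AP-1 relatives, Maff, Fosl2, Jund and Fosl1 were highest in SCN9A_2544 replicate 3. Maff, a small Maf protein, stood at 19.1 CPM there and at no more than 6.96 CPM elsewhere, with a log2 fold change of 0.77 that was 0.22 without it. Fosl2 went from 0.60 to 0.09 and Jund from 0.28 to 0.14, while Fosl1 went from 0.08 to -0.14. Mafk has 2 rows under 1 symbol, with log2 fold changes of -0.27 and 0.07 that became -0.51 and -0.18 without SCN9A_2544 replicate 3. The row at -0.27 was also highest in that library, by 17.43 against 17.42 CPM in PBS replicate 5. Without that library the same row, at -0.51, had an edgeR unadjusted p under 0.05.

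The other EGR and NR4A genes and their co-repressors did not share a direction. Of 5 tested, 2 lay above 0 and 3 below, with a median log2 fold change of -0.31 and -0.42 without SCN9A_2544 replicate 3. Egr2, which drives myelination in Schwann cells and is also 1 of the 15 Schwann cell genes used here, held 19.98, 73.6, 171, 25.4 and 75.2 CPM in PBS libraries and 16.8, 28.2, 150, 39.2 and 31.5 CPM in treated libraries. It was high in the libraries rich in Schwann cell transcripts of both groups, and its log2 fold change of -0.46 (SE 0.66) became -1.37 (SE 0.55, edgeR adjusted p = 0.661) without SCN9A_2544 replicate 3. Nr4a2 stood at -0.31 and then -0.67. Nr4a3, with PBS libraries between 0.342 and 1.20 CPM, had 0.87 and then 0.95, in each case with an unadjusted p under 0.05. Nab1 and Nab2 encode proteins that bind EGR factors and repress their targets, and Nab1 had -0.44 and -0.42. Nab2, itself an EGR target, was at 87.4 CPM in SCN9A_2544 replicate 3 and at 17.0 to 44.2 CPM in the others. Its log2 fold change went from 0.48 to -0.17. An edgeR unadjusted p under 0.05 with a lower level was reached by Nab1 with all libraries, and by Egr2 without SCN9A_2544 replicate 3.

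Of 32 further immediate early genes, 31 had a row and 29 were tested. Of these, 22 lay above 0 and 7 below, and the median log2 fold change was 0.25. An unadjusted p under 0.05 with a higher level was reached by 4 of the 29, beside 2.5% of all genes. Without SCN9A_2544 replicate 3 the split was 15 above and 14 below, with a median of 0.13. In that library 15 of the 29 were highest, beside 21.1% of all genes. Socs3, the inhibitor of cytokine signalling through STAT3, held 7.83, 5.59, 8.64, 7.69 and 10.5 CPM in PBS libraries and 14.6, 14.6, 35.3, 17.0 and 15.1 CPM in treated libraries. The groups of Socs3 did not overlap, which was so, with treated higher, for 0.454% of all genes tested. Its log2 fold change was 1.26 (SE 0.28, edgeR adjusted p = 0.887) and 0.89 (SE 0.18, adjusted p = 0.661) without SCN9A_2544 replicate 3. DESeq2 passed it in both sets of libraries. Gadd45g and Gadd45a, growth arrest and DNA damage genes, had 0.62 and 0.60, and 0.66 and 0.53 without SCN9A_2544 replicate 3. Klf2, a transcription factor prominent in endothelium, had 0.73 and then 0.46.

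Of 14 genes that feed back on MAP kinases, 10 lay above 0, with a median log2 fold change of 0.11 that was -0.01 without SCN9A_2544 replicate 3. Dusp4, a nuclear phosphatase of the family to which Dusp1 belongs, was at 44.1 CPM in that library and at 5.97 to 17.1 CPM in the others, with a log2 fold change of 1.04 and then 0.45. The others with the smallest p were Spred2 (0.42, then 0.45), Dusp8 (0.36, then 0.23) and Dusp14 (-0.41, then -0.48). Among 27 rows of upstream factors and kinases, such as serum response factor partners and CREB co-activators, 0 reached an unadjusted p under 0.05, and the median was 0.10, or 0.07 without SCN9A_2544 replicate 3. Those with the smallest p were Mrtfa (0.38, then 0.39), Crtc1 (0.37, then 0.28), Mef2d (0.27, then 0.20) and Rps6ka1 (0.30, then -0.05).

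The late response genes, which immediate early factors switch on hours later, had a median log2 fold change of 0.21 over 13 tested and 0.17 without SCN9A_2544 replicate 3, with 10 of 13 above 0. Vgf, a neuropeptide precursor, held 51.3 to 104 CPM in PBS and 110 to 209 CPM in treated libraries. These did not overlap, as for 0.454% of all genes tested with treated higher. The log2 fold change of Vgf was 0.78 (SE 0.23, edgeR adjusted p = 0.963), and 0.84 (SE 0.22, adjusted p = 0.661) without SCN9A_2544 replicate 3. SCN9A_2544 replicate 3 was the lowest treated library for Vgf. Cartpt, another neuropeptide gene, had 2.23 (SE 0.90) and 2.52 without that library, with treated libraries from 0.409 to 38.5 CPM around PBS values of 1.20 to 3.93 CPM. Pcsk1, a prohormone convertase, had 0.42 and then 0.53 without SCN9A_2544 replicate 3.

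Heat shock genes, which report stress to proteins and tissue handling, had a median log2 fold change of 0.04 over 10 tested and 0.16 without SCN9A_2544 replicate 3, and none was highest in that library. Hspe1 had -0.25 (then -0.24), Dnajb1 0.24 (then 0.23), Hspb1 0.35 (then 0.47) and Hsp90aa1 -0.23 (then -0.08), all with an edgeR adjusted p of 0.963 or more over the 10 libraries. Hsp90aa1 stood at 615 CPM in SCN9A_2544 replicate 3, against 1315 to 2409 CPM in PBS. That library was the lowest of the 10 for Hsp90aa1 and Hspe1, and took places 9 and 5 from the highest for Hspb1 and Dnajb1. The part of cell content or handling in these values was not tested. No gene of these 7 related lists passed edgeR's test over all genes, and DESeq2 with all 10 libraries passed 1, Socs3.

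**Figure D4:**
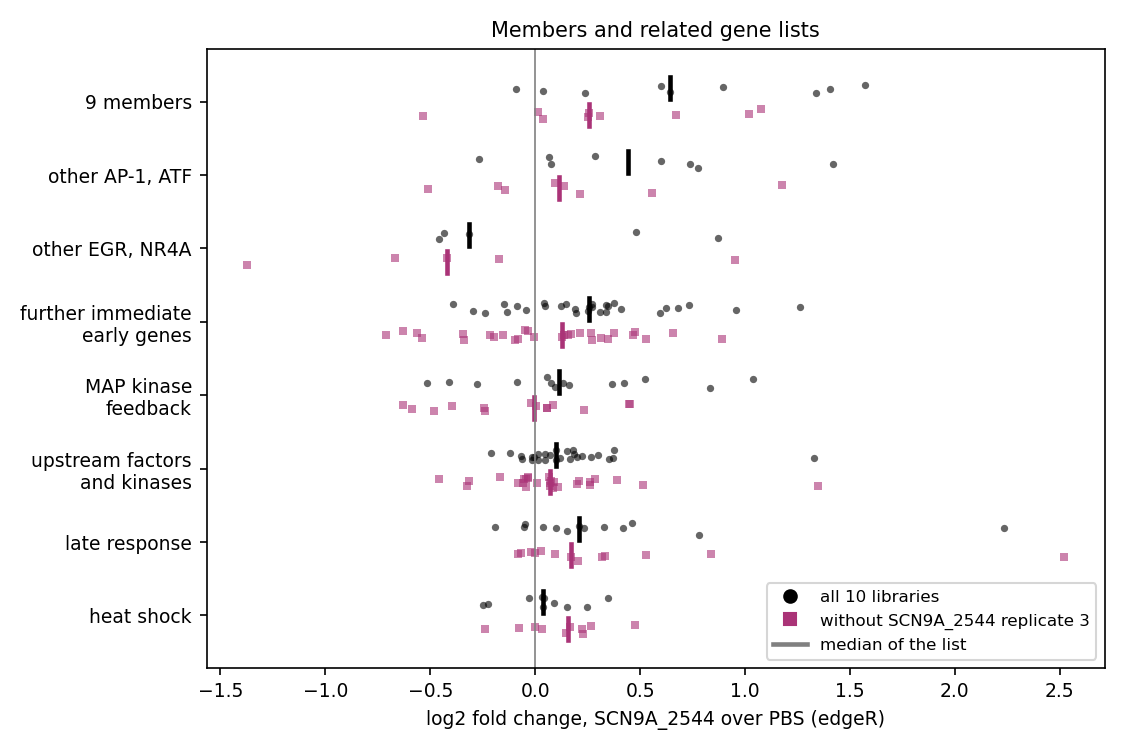
edgeR log2 fold changes of the 9 immediate early genes and of 7 related lists, each point a gene, with all 10 libraries (dark circles) and without SCN9A_2544 replicate 3 (squares), and the list median as a bar. The median of the 9 genes is at 0.64 and then 0.26, and that of the heat shock genes at 0.04 and then 0.16.

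The 9 genes varied together over the libraries to different degrees. Over the 10 libraries the Pearson r of log2 CPM had a median of 0.61 over the 36 pairs, with a range from -0.50 to 0.93. Over the 9 libraries without SCN9A_2544 replicate 3 the median was 0.21, with a range from -0.34 to 0.88. These values are descriptions, since the points share the libraries, their groups and their cell content. Against the mean of the other members, Ier2 (0.95), Fos (0.88), Egr1 (0.88) and Junb (0.83) had the highest r over 10 libraries, and Arc (-0.41) the lowest. Over 9 libraries Egr1 (0.82) and Ier2 (0.80) came first, Fosb and Fos had 0.64 and 0.63, and Nr4a1 (0.14), Btg2 (0.11) and Arc (-0.01) had the lowest values.

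Outside the list, the genes whose log2 CPM was most like the mean of the standardised members over 10 libraries were Map3k1 (r = 0.97), Ncoa5 (0.97), Samd1 (0.96), Eif4ebp2 (0.96), Chd4 (0.95), Bcorl1 (0.95), Kdm5c (0.95), Raver1 (0.94), Gpc2 (0.94) and Zfp710 (0.94). Over the 9 libraries without SCN9A_2544 replicate 3 they were Bicral (0.94), Soga1 (0.93), Klf8 (0.93), Npr3 (0.91), Morc2 (0.91), Eif4ebp2 (0.91), Map3k1 (0.91), Ncoa5 (0.91), Dlg5 (0.90) and Fads2 (0.89). The sets of 10 share 3 genes, Eif4ebp2, Map3k1 and Ncoa5. Each was picked as the highest among all genes tested, so such values are high by selection.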

How the data were processed

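Poly(A) RNA of 10 L6 ganglion samples (5 PBS, 5 SCN9A_2544) was sequenced in pairs of 150 bases with the NEBNext Ultra II RNA kit, per the labels' protocols, a kit named there without a strand setting. The authors deposited estimated counts per gene, not normalized, in which 11.6% to 12.4% of a library's values were not whole. Per the submitters' processing notes STAR 2.7.10a, DESeq2 1.44.0 and build mRatBN7.2 were used, with no role named. The program that made the counts and the annotation release are not stated there.

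Counts were rounded and low rows removed with filterByExpr (minimum count 10, minimum total 15), leaving 15186 of 30560 rows. edgeR 4.0.16 (R 4.3.3) with TMM scaling and its quasi-likelihood F-test compared the groups, with Benjamini-Hochberg adjustment over all tested rows at 0.05 and a biological coefficient of variation of 30.0%. The procedure was tested on simulated data, which held no outlying library and no shift in cell content. The SE is the log2 fold change divided by the square root of F, and log2 CPM uses a prior count of 2. Alternatives used DESeq2 1.42.0 and limma 3.58.1. Members and lists were chosen with earlier results of these data known. Genes named are all members, all tested genes of the AP-1 and EGR/NR4A lists, at most 4 of smallest p in each other list described, and the 10 most like the members. A gene that this rule takes is not reported here. Cell type lists not described in the text were computed but are not reported here. Promoter windows came from RefSeq.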

Additional observations from a re-analysis of the deposited data

Results flagged for a closer look

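In each of the 18 sets of 5 values (9 genes, 2 groups) the gap between an extreme library and its neighbour was set against the whole range, with Dixon's critical value of 0.71. Chance marks about 1 set in 20 when values are normally distributed. The values used were CPM without a log, which need not be, so that rate is only a guide. The 4 sets marked were all in the SCN9A_2544 group, each with replicate 3 as the high value, and since these genes come from the same library they are not independent. Egr3 stood at 22.1 CPM there, with a gap of 0.72 of the range. Fos stood at 48.5 CPM, with a gap of 0.88. Nr4a1 stood at 171 CPM, with a gap of 0.93, and Ier2 at 39.7 CPM, with a gap of 0.86. The same library was the poorest in pan-neuronal transcripts (7.97 log2 CPM) and the richest in Schwann cell and myelin transcripts (10.1 log2 CPM), and the part of this in the 4 values was not tested.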

How the results depend on the processing

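The log2 fold change of Egr1 stayed above 0 in all 22 alternatives run, between 1.01 and 1.48, with adjusted p from 0.0188 to 1.00, and only DESeq2 passed it. Over all genes, where edgeR passed 0, DESeq2 passed 17, limma voom with quality weights 1, a pan-neuronal covariate 1 (Scn9a) and a Schwann cell covariate 1 (Scn9a). Alternatives chosen after seeing the data passed 36 (DESeq2 without SCN9A_2544 replicate 3), 1 (edgeR leaving out the 3 libraries of lowest neuronal level) and 1 (pan-neuronal covariate without SCN9A_2544 replicate 3). Leaving out 1 library at a time passed 0 to 1 genes: Stac2 without SCN9A_2544 replicate 2 and ENSRNOG00000070035 without replicate 3. Of the 9 members DESeq2 passed 1, and 1 without SCN9A_2544 replicate 3, where edgeR passed 0. Genes with an unadjusted p under 0.05 numbered 642 in edgeR, 967 in DESeq2, 1372 in DESeq2 without SCN9A_2544 replicate 3, 3175 in voom, 985 without the filter, and 1456 and 1346 with the covariates. The members' median was 0.26 to 0.75 over the left-out libraries.

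Signs turned for 3 genes near 0, and the cause was not tested. Nr4a1 was -0.39 with voom, -0.52 with DESeq2 without SCN9A_2544 replicate 3, -0.10 without the 3 libraries and -0.025 with the pan-neuronal covariate without SCN9A_2544 replicate 3, and -0.54 to 0.34 over the left-out libraries. Arc was 0.025 with DESeq2 without that library, 0.0023 without the 3 libraries and -0.37 to 0.034 over the left-out libraries. Btg2 was -0.33 with voom and -0.10 without the 3 libraries. Replicate numbers are in the labels, and same-numbered libraries deviated together with r from -0.01 to 0.57, highest for replicates 3 (0.57) and 1 (0.38). So few pairs cannot tell whether a number stands for anything shared. PBS replicates 1 and 3 correlated best with their own number and the other 3 did not. With a replicate block 0 genes passed, 753 had an unadjusted p under 0.05 and Nr4a1 was -0.024. Counts were lowest for Fosb, at 10 to 67 per library, and for Arc, at 26 to 70.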
